A study of Cyanidioschyzon merolae with 75 samples.

Results

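The comparison concerned 12 two-colour arrays of Cyanidioschyzon merolae strain 10D, of 75 in the series and of 25 in its series 3. Each 24 h cycle was divided by sampling time into 4 periods of 3 samplings. Period 4 held 20, 22 and 24 h of cycle 1 and 44, 46 and 48 h of cycle 2, and period 3 held 14, 16 and 18 h of cycle 1 and 38, 40 and 42 h of cycle 2. The arrays were chosen by time alone, 6 a side, and each time has 1 array in series 3. All cells were of strain 10D and were sampled every 2 h, from 2 to 50 h, in culture synchronised by light and dark. The samples compared share this strain, this way of culture and the Cy5-labelled pool of all samples against which each Cy3-labelled time was hybridised. Whether 1 culture or more was sampled could not be decided here. The labels do not give the hours of light and dark, so the periods are positions in the sampling and not stages of division read under a microscope.

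C. merolae is a unicellular red alga of hot acid springs. Its cell holds a single nucleus, a single mitochondrion and a single plastid, and the organelles divide in a fixed order around mitosis, which is why synchronised cultures of it are used to follow division. In synchronised algae, transcripts of division and of photosynthesis are known to peak in different phases of the cycle. The comparison asks which transcripts changed between period 3 and period 4 in the same direction in both cycles.

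Each value is log2 of Cy3 over Cy5 with the median of its array set at 0. It is a ratio to the pool, so it compares times within a gene and not the abundance of 2 genes. In all 4576 genes were measured. The gene table given here matched 4565 of their tags and paired 0 of them with another symbol, so genes are named by tag and no role is assigned to any. The 20 functional lists matched 0 genes for the same reason.

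The arrays were first set against each other. Wherever all 3 series hold intensities (24 times), 100% of series 3 probes equalled the average of series 1 and 2 within 0.01%, so each time counts as 1 sample and no replicate culture enters the errors. Neighbouring times of a culture are not independent, and p-values measure the scatter of times within a period. Median Cy3 intensity lay between 2440 and 6831 in period 4 and between 2567 and 4862 in period 3. Median Cy5 intensity lay between 581 and 4668 in period 4 and between 1042 and 3848 in period 3. The SD of log2 ratios over genes was 0.62 at 46 h and 0.55 at 48 h, and between 0.29 and 0.43 on the other 10 arrays. The ratio fell with brightness at 46 h (correlation over probes -0.74) and rose with it at 24 h (0.33), the array with the dimmest Cy5 of the 12. The mean correlation over genes of the 24 h array was 0.18 with the other arrays of period 4 and -0.095 with those of period 3. After loess, which removes the trend with brightness within an array, these means were 0.45 and 0.014.

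With both cycles in the fit, more transcripts were called lower than higher. In period 4, 131 of 4576 genes (2.86%) differed from period 3 by limma's moderated test with cycle as a term, at a Benjamini-Hochberg adjusted p under 0.05, a difference of at least 1.5-fold and the same sign in both cycles. Of these, 110 genes (2.4%) were lower and 21 (0.459%) were higher. At an adjusted p under 0.05 without the demand on size, 121 were lower and 31 higher (3.32% called). The median difference was -1.09 on the log2 scale over the lower genes, 1.04 over the higher genes and 0.011 over all genes. Differences between times 6 h apart had the same direction at 6 of 6 in 90 of the 110 lower genes and 20 of the 21 higher genes, against 6.34% of all genes. The selection of the genes fixes part of these shares.

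The split between lower and higher genes moved with the cycle and the scaling. Cycle 2 alone gave 175 lower and 37 higher genes, and cycle 1 alone 8 lower and 8 higher. These fits set 3 times against 3 and made no demand on the sign in the other cycle. So few calls in cycle 1 alone cannot show whether the excess of lower genes was absent there. The 110 lower genes stepped down in cycle 1 by the rule, with a median of -0.88. After loess 118 genes (2.58%) were lower and 52 (1.14%) higher, 3.72% together, and they included 97 of the 110 lower and 18 of the 21 higher genes. With arrays scaled to equal spread 109 were lower and 75 higher, and in the authors' log2 values 106 and 69. The authors' values are not centred on the array median. Once so centred, a step chosen after the data were seen, they gave 112 lower and 23 higher. Without the wide arrays of 46 and 48 h 61 were lower and 34 higher, without 46 h alone 91 and 42, and without 24 h 121 and 14.

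The plot of single values shows the 12 genes with the largest rise and the 12 with the largest fall.

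**Figure D1:**
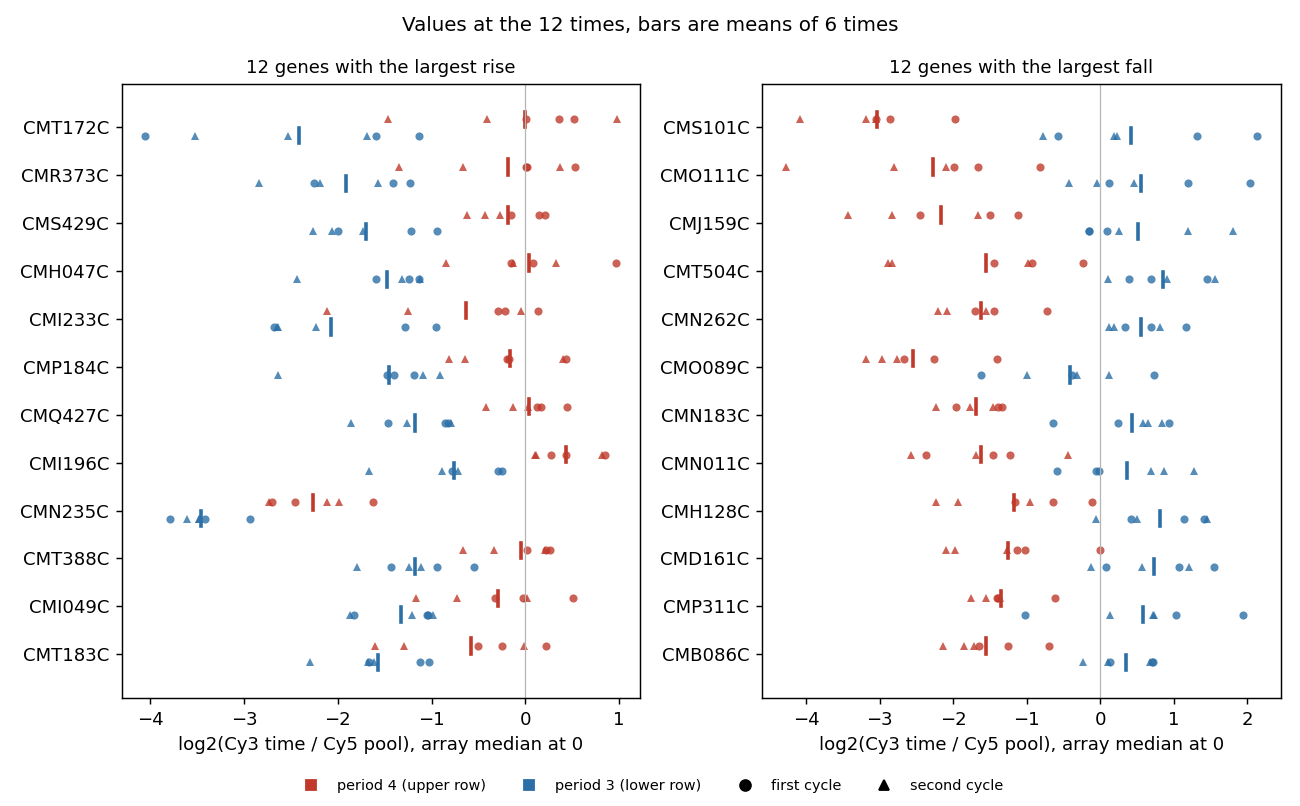
Values of 24 genes at the 12 times, on a log2 scale with the median of each array at 0. Red points in the upper row of a gene are the 6 times of period 4 and blue points in the lower row the 6 times of period 3, with circles for cycle 1, triangles for cycle 2 and bars for means of 6 times. CMS101C shows a gap between -1.97, its highest value in period 4, and -0.78, its lowest in period 3.

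CMS101C fell furthest. In period 4 its values were -1.97, -3.05 and -2.86 at 20, 22 and 24 h and -3.05, -4.08 and -3.18 at 44, 46 and 48 h. In period 3 they were 2.13, 1.32 and -0.57 at 14, 16 and 18 h and 0.18, 0.23 and -0.78 at 38, 40 and 42 h. All 6 values of period 4 lay below all 6 of period 3. The difference was -3.45 ± 0.40 (log2, standard error of the fit over 12 arrays), a 10.9-fold fall, with steps of -3.32 in cycle 2 and -3.59 in cycle 1. The adjusted p from limma was 0.000786.

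CMO111C had the next largest fall. Its values ran from -4.28 to -0.81, median -2.04, in period 4, and from -0.42 to 2.03, median 0.29, in period 3. The periods did not overlap, and the lowest value was that of 46 h. The difference was -2.83 ± 0.39, with an adjusted p from limma of 0.00268.

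CMJ159C ran from -3.42 to -1.11, median -2.05, in period 4, and from -0.15 to 1.81, median 0.18, in period 3, again without overlap. Its step was -3.73 in cycle 2 and -1.62 in cycle 1. Limma's interaction test of that inequality gave an unadjusted p of 0.00858 and an adjusted p of 0.104, so it did not pass. The mean difference was -2.67 ± 0.44, with an adjusted p from limma of 0.00514.

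CMT504C ran from -2.89 to -0.24, median -1.21, in period 4, and from 0.10 to 1.56, median 0.80, in period 3. The periods did not overlap, and the lowest values were those of 46 and 48 h, at -2.89 and -2.84. The difference was -2.40 ± 0.41 (adjusted p from limma 0.00596).

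CMN262C and CMN263C carry neighbouring tags and both fell. CMN262C ran from -2.20 to -0.72, median -1.62, in period 4, and from 0.12 to 1.17, median 0.51, in period 3, a difference of -2.17 ± 0.20 with an adjusted p from limma of 0.000485. CMN263C, named because of its neighbour after its values were seen, ran from -2.54 to -0.29, median -1.48, in period 4, and from -0.047 to 1.00, median 0.35, in period 3, a difference of -1.86 ± 0.34 with an adjusted p from limma of 0.00873. In both genes every value of period 4 lay below every value of period 3.

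CMN183C, CMH128C and CMB086C were separated as well. CMN183C ran from -2.23 to -1.34, median -1.61, in period 4, and from -0.65 to 0.93, median 0.62, in period 3, a difference of -2.12 ± 0.25. CMH128C ran from -2.23 to -0.12, median -1.06, in period 4, and from -0.062 to 1.45, median 0.82, in period 3, a difference of -1.98 ± 0.31. CMB086C ran from -2.13 to -0.69, median -1.68, in period 4, and from -0.23 to 0.72, median 0.41, in period 3, a difference of -1.90 ± 0.19. Of these, CMH128C came closest to overlap, between 20 h at -0.12 and 42 h at -0.062.

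In the other 4 of the 12 largest falls the periods overlapped, each time through 18 or 42 h, the last times of period 3. CMO089C ran from -3.19 to -1.40, median -2.71, in period 4, and from -1.62 to 0.74, median -0.35, in period 3, a difference of -2.13 ± 0.36. CMN011C ran from -2.57 to -0.44, median -1.58, in period 4, and from -0.59 to 1.27, median 0.34, in period 3, a difference of -1.99 ± 0.34. In both, 18 h held the lowest value of period 3.

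CMD161C ran from -2.10 to -0.0039, median -1.20, in period 4, and from -0.12 to 1.55, median 0.82, in period 3, a difference of -1.98 ± 0.31, and its lowest value in period 3 was that of 42 h. CMP311C ran from -1.76 to -0.61, median -1.40, in period 4, and from -1.02 to 1.93, median 0.72, in period 3, a difference of -1.93 ± 0.38, and its call was lost without 46 and 48 h. Over the 12 genes adjusted p-values from limma ran from 0.000485 for CMN262C to 0.0136 for CMP311C. Each of the 12 except CMN262C and CMB086C lost its call in cycle 1 alone, where 3 times stood against 3.

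The lower genes included a run of near neighbours. CMN165C, CMN166C, CMN169C, CMN173C and CMN176C are 5 called genes within 8 measured genes in tag order, the 1 place with 3 or more called genes of the same direction within 5 measured genes. CMN166C ran from -2.34 to -0.35, median -1.09, in period 4, and from 0.20 to 1.40, median 0.41, in period 3. CMN169C ran from -2.11 to -0.46, median -1.16, in period 4, and from 0.09 to 1.22, median 0.36, in period 3. CMN176C ran from -1.49 to -0.69, median -1.08, in period 4, and from 0.032 to 1.85, median 0.30, in period 3.

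In all 5 genes the periods did not overlap, and the highest of the 25 values was that of 16 h. CMN173C ran from -1.96 to -0.29, median -0.97, in period 4, and from 0.069 to 1.07, median 0.39, in period 3. CMN165C ran from -1.42 to -0.59, median -1.01, in period 4, and from 0.015 to 1.19, median 0.39, in period 3. The differences were -1.74 ± 0.25 for CMN166C, -1.70 ± 0.20 for CMN169C, -1.62 ± 0.25 for CMN176C, -1.50 ± 0.24 for CMN173C and -1.50 ± 0.18 for CMN165C.

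Their adjusted p-values from limma ran from 0.000786 to 0.00481. Their steps ran from -1.89 to -1.41 in cycle 2 and from -1.64 to -1.47 in cycle 1. The 3 measured genes between them did not pass: the difference was 0.22 ± 0.11 for CMN167C, 0.068 ± 0.082 for CMN171C and 0.0059 ± 0.11 for CMN175C. All 5 called genes were brighter than at least 99.7% of genes. Whether their probes share sequence was not tested.

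**Figure D2:**
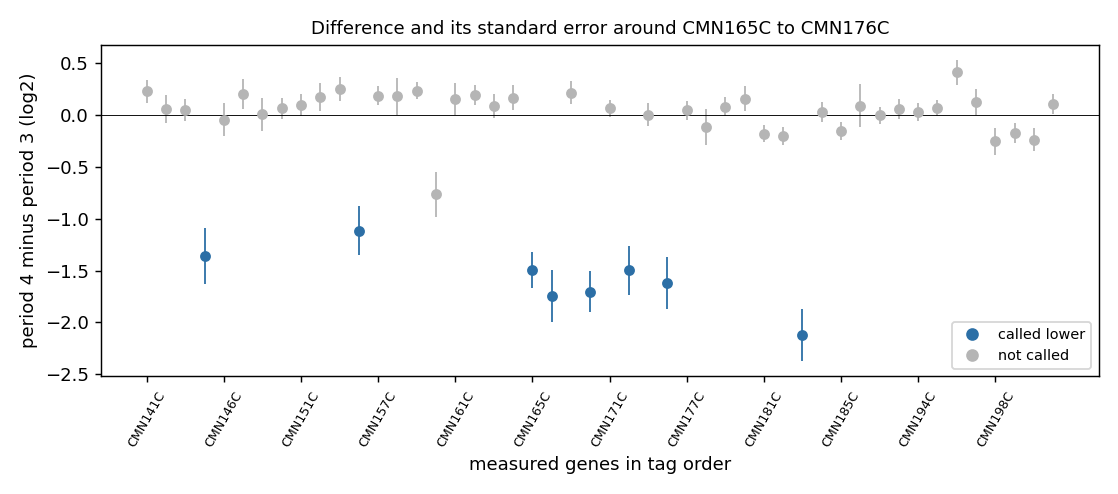
Difference between period 4 and period 3 (log2, points) with its standard error (bars) for measured genes in tag order around CMN165C to CMN176C, coloured by whether a gene was called lower. The 5 called genes of the run lie between -1.74 and -1.50, and the 3 genes between them lie between 0.0059 and 0.22.

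Further called genes stood near this run and were picked out after their values were seen. CMN145C had a difference of -1.36 ± 0.27, CMN156C of -1.11 ± 0.24, and CMN183C, described above, lies 7 places after CMN176C. Of 235 measured genes whose tags start with CMN, 15 were called lower (6.38%), and the share was between 0 and 3.91% for every other first 3 letters. No test was run on these shares.

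Adjacent measured genes were both called in 5 pairs, all of them lower, and the pairs were picked out after their values were seen. Besides CMN165C with CMN166C and CMN262C with CMN263C, these were CMI101C (-0.94 ± 0.18) with CMI102C (-1.10 ± 0.17), CMR405C (-1.32 ± 0.26) with CMR406C (-1.38 ± 0.23), and CMT492C (-0.79 ± 0.15) with CMT493C (-0.74 ± 0.13). Without strand or probe sequence, whether neighbours share a transcript was not tested.

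The other 93 lower genes outside the 12 largest falls and the run had differences from -1.86 to -0.59, with a median of -1.01, and in 54 of them the periods did not overlap. Over all 4576 genes 80 (1.75%) had every value of period 4 below every value of period 3, and 67 of these were called lower. In the other direction 24 genes (0.524%) had every value of period 4 above every value of period 3, and 11 of these were called higher. This split also moved: 100 genes were below and 70 above after loess, and 138 and 51 without 18 h. Without 46 and 48 h they were 96 and 87, and after loess without 46 and 48 h 150 and 139. Leaving out times can only keep or raise each of these counts, so that direction was fixed.

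Among the genes that rose, CMT172C changed most. In period 4 its values were 0.0022, 0.36 and 0.52 at 20, 22 and 24 h and -0.41, -1.47 and 0.97 at 44, 46 and 48 h. In period 3 they were -4.05, -1.59 and -1.13 at 14, 16 and 18 h and -3.52, -2.53 and -1.69 at 38, 40 and 42 h. Of period 4 only 46 h lay within the range of period 3. The difference was 2.42 ± 0.51, a 5.33-fold rise, with steps of 2.28 in cycle 2 and 2.55 in cycle 1 and an adjusted p from limma of 0.0213. The call was lost when 22, 38 or 48 h was left out.

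CMR373C ran from -1.35 to 0.53, median 0.0088, in period 4, and from -2.84 to -1.23, median -1.88, in period 3. Here too 46 h was the only time of period 4 within the range of period 3. The difference was 1.73 ± 0.29 (adjusted p from limma 0.00584).

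CMS429C and CMH047C rose by about the same amount and were fully separated. CMS429C ran from -0.62 to 0.21, median -0.21, in period 4, and from -2.27 to -0.94, median -1.86, in period 3, a difference of 1.52 ± 0.17. CMH047C ran from -0.84 to 0.97, median -0.024, in period 4, and from -2.43 to -1.12, median -1.28, in period 3, a difference of 1.51 ± 0.26. CMS429C had the smallest adjusted p of the 12 largest rises, 0.000786 from limma.

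CMN235C stayed below 0 at all 12 times. It ran from -2.73 to -1.62, median -2.28, in period 4, and from -3.79 to -2.94, median -3.48, in period 3, while its mean over the first period of the cycles was 0.34. Its difference was 1.19 ± 0.20 (adjusted p from limma 0.00558), and the periods did not overlap. CMI196C, by contrast, lay above 0 at all 6 times of period 4: it ran from 0.11 to 0.85, median 0.36, in period 4, and from -1.67 to -0.25, median -0.75, in period 3, a difference of 1.20 ± 0.20.

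CMQ427C and CMP184C were separated too. CMQ427C ran from -0.42 to 0.44, median 0.074, in period 4, and from -1.86 to -0.79, median -1.06, in period 3, a difference of 1.21 ± 0.18. CMP184C ran from -0.81 to 0.43, median -0.19, in period 4, and from -2.64 to -0.91, median -1.29, in period 3, a difference of 1.28 ± 0.29. CMT388C overlapped through 44 h at -0.66 and 16 h at -0.55, and had a difference of 1.13 ± 0.18.

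The remaining 3 of the 12 overlapped and were less stable. CMI233C ran from -2.11 to 0.13, median -0.25, in period 4, and from -2.68 to -0.95, median -2.44, in period 3, a difference of 1.44 ± 0.33. CMI049C ran from -1.17 to 0.50, median -0.18, in period 4, and from -1.87 to -0.98, median -1.13, in period 3, a difference of 1.04 ± 0.25. CMT183C ran from -1.60 to 0.22, median -0.37, in period 4, and from -2.30 to -1.02, median -1.64, in period 3, a difference of 1.00 ± 0.25.

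CMI233C lost its call in 15 of 31 other fits, CMI049C in 17 and CMT183C in 18, and 9, 9 and 11 of these left out 1 time. CMP184C lost it in 11, and each of the other 8 in at most 6. Over the 12 genes adjusted p-values from limma ran from 0.000786 for CMS429C to 0.0482 for CMT183C. The other 9 higher genes had differences from 0.61 to 0.84, and 5 of them were separated.

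The largest mean difference that did not pass belonged to CMS022C, named after its values were seen. It ran from -3.70 to 0.035, median -1.63, in period 4, and from -2.51 to 1.94, median 0.99, in period 3, a difference of -2.21 ± 0.75 with an adjusted p from limma of 0.156. Its step was -3.51 in cycle 2 and -0.90 in cycle 1.

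The place of the changes within the 12 times was read from the 2 h intervals. The same 12 values selected the genes, and a difference of period means weighs the interval at the border of the periods most. Selection thus favours that interval in called genes, and the counts are a description. The shares over all genes were not computed. In the lower genes the largest drop of cycle 1 came between 16 and 18 h, within period 3, in 58 of 110 genes (median change -0.64) and between 18 and 20 h in 26. In cycle 2 it came between 42 and 44 h, at the border of the periods, in 70 of 110, with a median change of -0.80. After loess the border interval led in both cycles, with 51 genes between 18 and 20 h and 66 between 42 and 44 h. In cycle 1, 31 genes still dropped most between 16 and 18 h (median change -0.45) and 20 between 14 and 16 h. Which interval led in cycle 1 thus depended on the scaling, while a drop before the border remained. In the higher genes the largest rise came between 18 and 20 h in 12 of 21 and between 14 and 16 h in 6, and in cycle 2 between 42 and 44 h in 8 and between 38 and 40 h in 8. After loess it came between 18 and 20 h in 9 and between 14 and 16 h in 8, and in cycle 2 between 42 and 44 h in 7, 46 and 48 h in 6 and 38 and 40 h in 4.

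**Figure D3:**
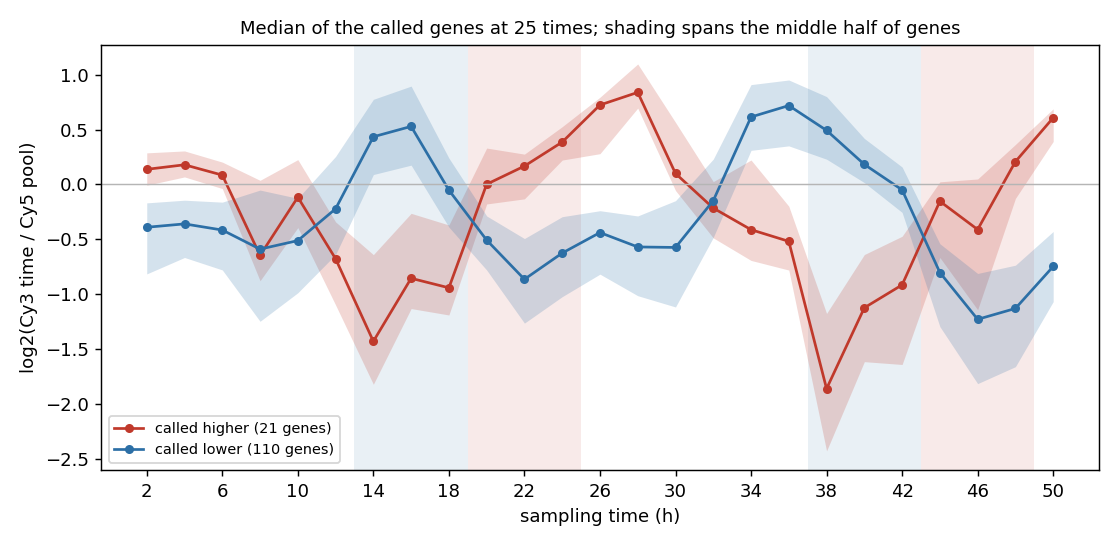
Median of the 110 lower and the 21 higher genes (lines) at the 25 sampling times in h, on the log2 scale of the ratio to the pool, with shading between the 25% and 75% points over genes. Red background bands mark period 4 and blue bands period 3. The lower genes stand at 0.53 at 16 h and -0.86 at 22 h, and the higher genes at -1.43 at 14 h and 0.84 at 28 h.

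The arrays of periods 1 and 2, which the comparison did not use, were set beside those of periods 3 and 4. That the lower genes stood lower in period 4 than in period 3, and the higher genes higher, is fixed by their selection, so the order of the 4 means is a description. Over the 110 lower genes the medians of the period means were -0.45, 0.00039, 0.32 and -0.93 in periods 1, 2, 3 and 4. Period 4 had the lowest of the 4 means in 96 of the 110 genes, against 27.9% of all genes, and period 1 or 2 in the others. Period 3 had the highest in 78, period 2 in 27 and period 1 in 5, against 19.6%, 28.9% and 20.9% of all genes. The cycles differed before period 3: the median of the lower genes was -0.51 at 10 h and 0.62 at 34 h, the matched time of cycle 2. The highest of the 25 values came at 14 or 16 h in 37 of the 110 and at 34, 36 or 38 h in 55. Over all genes these shares were 6.32% and 12.76%. The second window holds more times and the windows are not matched 24 h apart, so 37 and 55 do not compare the cycles.

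Over the 21 higher genes the medians of the period means were 0.34, -0.40, -1.18 and -0.0036 in periods 1, 2, 3 and 4. Period 3 had the lowest mean in 16 of 21, and period 1 had the highest in 16, against 20.65% and 20.91% of all genes. In 13 of the 21 genes the highest of the 25 values came at 28 h, 4 h after the end of the first cycle, against 158 of 4576 genes (3.45%). The median of the 21 was 0.39, 0.72 and 0.84 at 24, 26 and 28 h. The cycles differed here too: at 2 and 4 h, the times matched to 26 and 28 h, it was 0.14 and 0.18. Only 1 of the 21 had its highest value at 4 h. The means of period 1 pool both cycles. Of the 12 largest rises 9 had their highest value at 28 h and 9 their lowest at 38 h.

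The steps of the cycles were then compared. Over the lower genes the median step was -1.19 in cycle 2 and -0.88 in cycle 1, and it was larger in cycle 2 in 82 of 110. After loess the medians were -1.05 in cycle 2 and -0.96 in cycle 1, and the step was larger in cycle 2 in 55 of 110. Over the higher genes the medians with median centring were 0.89 in cycle 2 and 1.10 in cycle 1, with the step larger in cycle 2 in 6 of 21. That order depended on the scaling: after loess more of the 21 had the larger step in cycle 2 than in cycle 1. CMT172C, for example, then had steps of 2.96 in cycle 2 and 2.42 in cycle 1, while CMQ427C had 1.19 and 1.22.

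**Figure D4:**
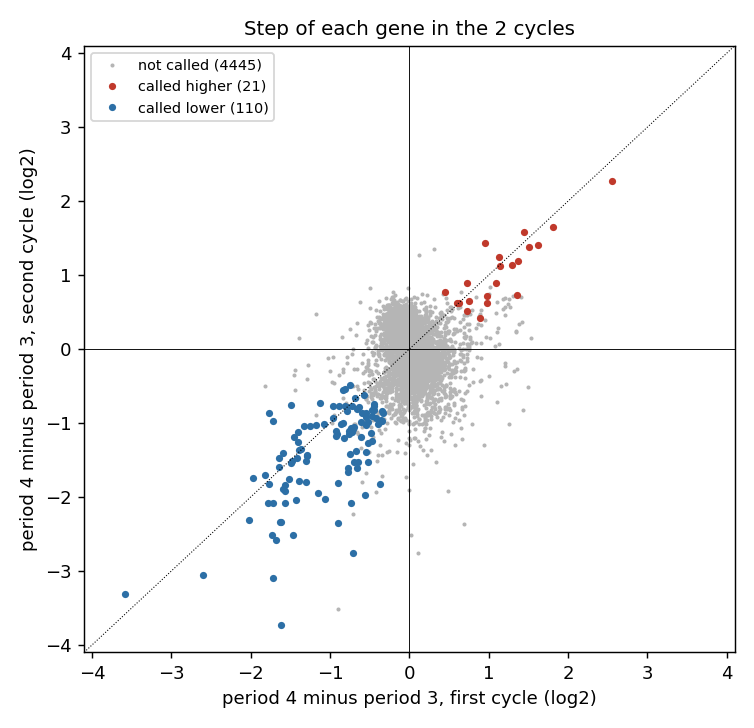
Difference between period 4 and period 3 (log2) of each gene in cycle 1 (x axis) and cycle 2 (y axis). Blue points are the 110 genes called lower and red points the 21 called higher, which share the sign of both steps by the rule, and grey points are the other 4445 genes. Of the 110 lower genes 82 have the larger step in cycle 2.

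Limma's interaction test called 0 genes (0%) at an adjusted p under 0.05, with 1083 (23.7%) at an unadjusted p under 0.05 and a smallest adjusted p of 0.0858. After loess these were 0 genes, 592 (12.9%) and 0.223. The interaction called 9 genes in the authors' log2 values, 0 in those values centred on the array median, and 182 when 16 h was left out. The steps had the same sign in both cycles in 41.2% of all genes, and in 57.5% after loess.

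The 2 genes of each sign with the smallest unadjusted p in that test stepped in opposite directions in the cycles, and none passed (adjusted p from limma 0.0858 in each). CMP215C had a step of 0.68 in cycle 2 and -0.23 in cycle 1. In period 4 its values were 0.54, 0.49 and 0.61 at 44, 46 and 48 h, and -0.077, 0.019 and -0.21 at 20, 22 and 24 h. In period 3 they were -0.062, -0.27 and -0.055 at 38, 40 and 42 h, and 0.17, 0.13 and 0.13 at 14, 16 and 18 h. All 3 values of period 4 lay above those of period 3 in cycle 2 and below them in cycle 1.

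CME115C had steps of 0.69 in cycle 2 and -0.30 in cycle 1, CMJ066C of -1.36 and 0.28, and CMS281C of -0.61 and 0.30. The cycle 2 step minus the cycle 1 step was 0.91 for CMP215C, 0.99 for CME115C, -1.64 for CMJ066C and -0.91 for CMS281C. After loess it was 0.52, 0.54, -1.28 and -0.64, smaller in all 4.

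Brightness moved with the steps. Among the dimmest 1144 genes the median step was 0.20 in cycle 2 and -0.10 in cycle 1, and among the brightest 1144 it was -0.30 in cycle 2 and 0.12 in cycle 1. After loess these 4 medians lay between -0.024 and 0.029. Loess removes the trend with brightness within an array, so medians near 0 follow from the method. Over both cycles the median difference was 0.048 in the dimmest and -0.082 in the brightest 1144 genes. The part of brightness in the single calls was not tested.

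**Figure D5:**
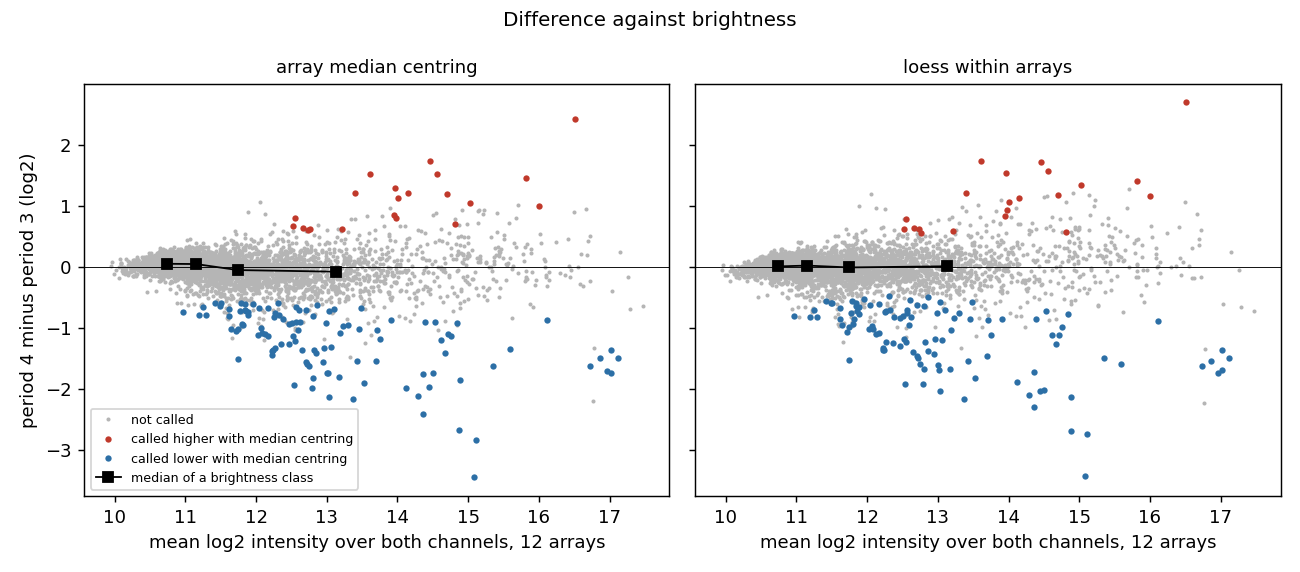
Difference between period 4 and period 3 (log2) against the mean log2 intensity of both channels over the 12 arrays, with array median centring (left) and after loess (right). Loess removes the trend with brightness by its method. Blue and red points are genes called lower and higher with median centring, and black squares are medians of 4 equal classes of brightness, which run from 0.048 to -0.082 on the left.

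Calls came mostly from bright probes. All 21 higher genes and 76 of the 110 lower genes were among the brightest 1144, where 8.48% of genes were called, against 0.0874% of the dimmest 1144. The SD of the difference over genes was 0.51 in the brightest and 0.11 in the dimmest class. CMT493C, of the last pair above, was the called gene of the dimmest class, and it ran from -0.76 to 0.035, median -0.21, in period 4, and from 0.074 to 0.84, median 0.46, in period 3. No background was subtracted from the intensities used here, so the lack of calls among dim genes does not show that dim transcripts held steady.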

How the data were processed

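Per the file headers, the deposited tables give a raw Cy5 and a raw Cy3 intensity per probe. Per the labels' protocols, Cy3 marked RNA of the sampling time and Cy5 a mixture of the samples, both amplified from an oligo(dT) primer. The authors' deposited log2 values served as an alternative. Set against log2(Cy3/Cy5) of the same arrays, their deviations from each gene's mean had slopes of 0.997 to 1.00, so scale and direction are those of that ratio with genes centred. Their array medians ran from -0.238 to 0.653. Scanner, software and background treatment are not known here. Here log2(Cy3/Cy5) was centred on the array median and 4586 probes were averaged to 4576 genes. None of the 10 genes with a second probe was called. R 4.3.3 with limma 3.58.1 fitted period and cycle on 12 arrays, adjusting over all genes. Scripts were tested on simulated data, and figures were drawn with matplotlib 3.10.9. Files of 14 h in series 1 and 2 hold no intensities, so fits on them lack 14 h. Named genes are the 12 largest rises and falls among called genes, runs of 3 or more called genes within 5 places, and the 2 genes of each sign with the smallest interaction p; others are said to be chosen after their values were seen. The members and lists were chosen with earlier results of these data known. Alternatives were other scalings, background correction, a filter on dim genes, other arrays and thresholds, and times left out. Precision is limited by 12 arrays.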

Additional observations from a re-analysis of the deposited data

Results flagged for a closer look

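Among 74 groups of 6 values examined, 4 held a time far from the other 5 by Dixon's 95% limit, and chance gives about 1 in 20 groups. In period 4 CMP311C was at -0.61 at 22 h, where the next value was -1.36. In period 3 CMH047C was at -2.43 at 38 h, next to -1.59, CMP184C was at -2.64 at 38 h, next to -1.47, and CMN176C was at 1.85 at 16 h, next to 0.63.

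In CMP215C and CMS281C all values of period 4 lay on one side of those of period 3 in cycle 2 and on the other side in cycle 1. The cycle 2 step minus the cycle 1 step was 0.91 for CMP215C and -0.91 for CMS281C. Limma's interaction test gave an adjusted p of 0.0858 for both, so neither passed. Such opposite and separated steps occurred in 96 of all 4576 genes, and in 41 after loess.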

How the results depend on the processing

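Called genes numbered 131. They were 227 with normexp at an offset of 50, 205 with array weights, 75 at 2-fold, 212 in cycle 2 alone (175 lower, 37 higher) and 16 in cycle 1 alone (8 lower, 8 higher). They were 230 with all arrays of the times that have intensities in 3 series and the series number as a replicate block. The interaction then called 2211 genes. That fit counts series 3 as separate from series 1 and 2, although it is their average. Series differences of 2 times correlated at -0.0889 to 0.118, over 0.1 in 1 of 55 pairs. These correlations cannot decide whether series 1 and 2 are separate cultures or readings of 1 sample. With 1 time left out calls ran from 77 (without 38 h) to 172 (without 18 h), and were 83 without 22 h. The interaction called 0 genes, 9 in the authors' log2 values and 0 in those values centred on the array median. With 1 time left out it called 0 to 182 (182 without 16 h). Genes whose periods did not overlap numbered 104. They were 170 after loess, 183 without 46 and 48 h, 289 after loess without 46 and 48 h, 214 after loess without 24 h, and 106 to 189 with 1 time left out (189 without 18 h). Leaving out times can only keep or raise the number of genes without overlap, so the direction of those changes was fixed. The cause of the other shifts was not tested. Higher genes made up 16.03% of calls, against 50% in cycle 1 alone, 40.8% with arrays scaled to equal spread, 39.4% in the authors' values, 30.6% after loess, 31.6% without 46 h, 35.8% without 46 and 48 h, and 17.04% in the authors' values centred on the array median. That centring, and leaving out 46 and 48 h or, after loess, 24 h, were chosen after the data were seen. Over 899 other fits of the 29 genes named for a rise, a fall or the run, 94 lost the call and 0 changed sign, and CMN262C and CMB086C lost it in 0 of 31. These genes were chosen in the same arrays for a large change of the same sign in both cycles. Their sign in either cycle alone was therefore fixed, and in most other fits nearly so. How far the lack of background values limits dim genes was not tested.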

Other observations

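After loess 34 genes were called higher and 21 lower that were not called with median centring. CMN022C, the largest such rise, had a difference of 1.27 after loess (adjusted p from limma 0.00351) and of 1.01 ± 0.31 with median centring (adjusted p from limma 0.103). CMG086C had 1.21 after loess (adjusted p from limma 0.000804) and 0.93 ± 0.25 with median centring (adjusted p from limma 0.0621). Both were picked out after their values were seen.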
